A study of Macaca mulatta with 6 samples.

Results

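Gene expression of the CREB family and its coactivators was followed in rhesus monkeys (Macaca mulatta) that had received morphine for months. The polyadenylated RNA came from cells described as purified cortical neurons, although markers of glia were abundant too. The set was chosen by gene name, with earlier results of these data known. It holds CREB1, CREM, ATF1 and ATF2, which bind the cAMP response element, and the acetyltransferases CREBBP and EP300. The CREB-regulated transcription coactivators CRTC1, CRTC2 and CRTC3 complete it. Of these 9 genes, 8 were found by rhesus Ensembl identifier among the 23191 genes of the full deposited table, and all 8 had a mean of at least 10 normalized counts, the level for testing, as had 16595 genes in all. ATF1 was not analysed here. The groups were 3 libraries from morphine animals and 3 libraries from saline animals, all male and 3 to 4 years old. Subcutaneous morphine, an agonist chiefly of the mu opioid receptor, was given 3 times daily over 90 days in steps that began at 3 mg/kg and reached 15 mg/kg on day 29. Saline was given on the same schedule at 0.5 mL/kg. The protocol names 4 monkeys, 2 in each group, so some libraries of a group must come from the same monkey, and the labels do not say which. The p-values below describe library-to-library spread, they are too small for a comparison of monkeys, and treatment and individual monkey cannot be told apart.

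CREB1, CREM and ATF1 form the closely related core of the family: they bind the cAMP response element as dimers through a basic leucine zipper and are switched on when protein kinase A or calcium-dependent kinases phosphorylate a serine in their kinase-inducible domain. The phosphorylated domain recruits CREBBP (CBP) or EP300 (p300), which acetylate histones, while CRTC proteins move to the nucleus after calcineurin removes their phosphates and bind the leucine zipper. Opioid receptors lower cAMP when first engaged, and cAMP signalling through CREB rises in several rodent brain regions after long opioid exposure, which is why these genes are followed in studies of dependence. The files hold RNA levels only, and neither phosphorylation nor the position of a protein in the cell was measured.

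Of the 8 members measured, 3 rose with morphine (CREBBP, EP300 and CRTC3), 2 fell (CREM and ATF2) and 3 did not pass the test (CREB1, CRTC1 and CRTC2), at a limma adjusted p under 0.05. ATF2 and CREM fell by 0.64 each on the log2 scale, 1.56 fold and 1.55 fold, whereas the 3 rises lay between 0.27 and 0.31. Over all genes tested 27.9% were called (12.9% rose and 15.0% fell), and 33.4% of the 7656 genes whose mean lay within the range of the members. The median log2 fold change of the members was 0.21, beside 0.01 for all genes tested, and the median absolute log2 fold change was 0.29, beside 0.26. Morphine and saline libraries did not overlap for 6 of the 8 members, with 3 members higher and 3 lower in morphine libraries, beside 48.7% of all genes tested (24.1% higher and 24.6% lower). With the edgeR quasi-likelihood test and with DESeq2 on the recovered reads again 3 members rose and 2 fell, where 34.0% and 36.8% of all genes were called. The authors' deposited table likewise gave 3 rises and 2 falls, with 29.5% of its genes called. The fits that left out 1 library called 15.3% to 19.2% of all genes.

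**Figure D1:**
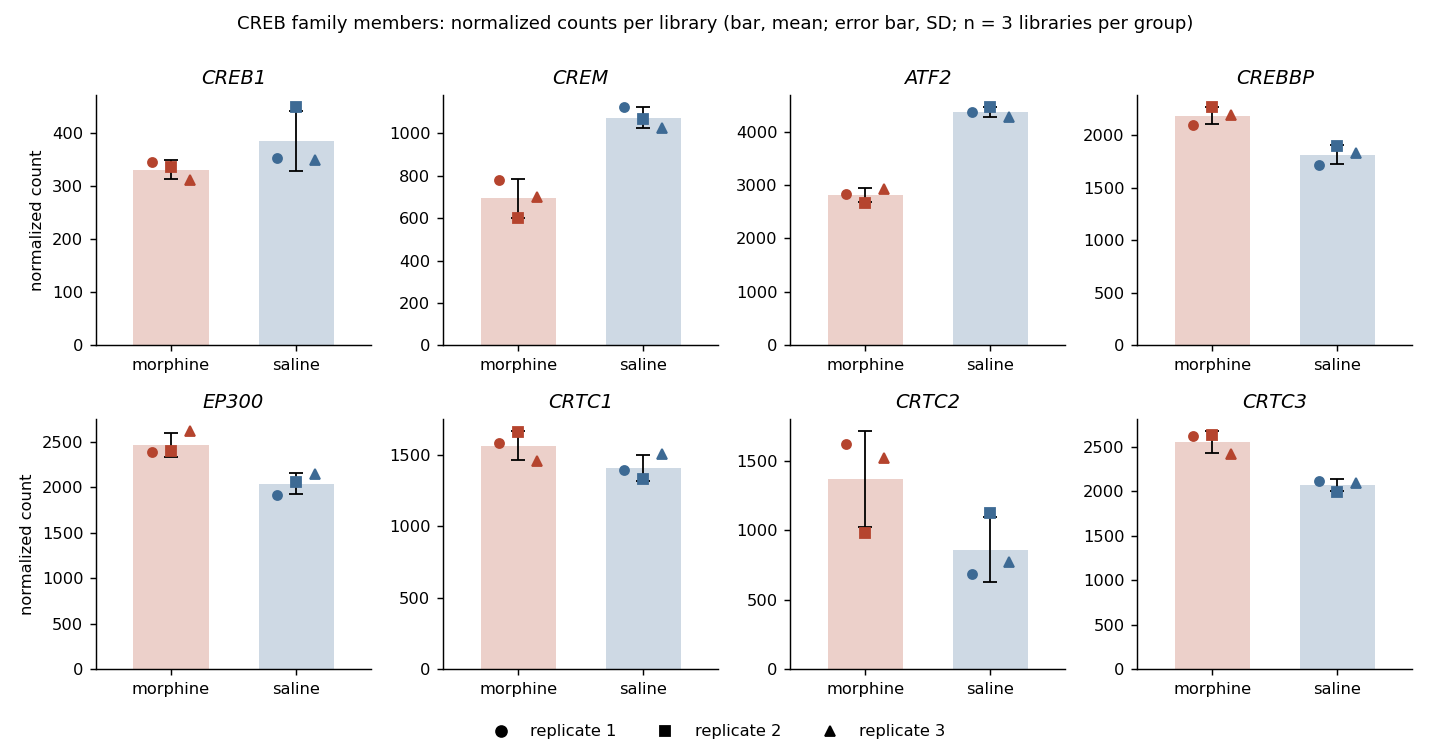
Normalized counts (y axis, from 0) of the 8 measured members in each library, with morphine at the left and saline at the right of each panel; bars are means, error bars SD, and the symbol gives the replicate number. ATF2 and CREM lie lower in all 3 morphine libraries, CREBBP, EP300 and CRTC3 lie higher, and library 2 of each group lies away from the other 2 for CRTC2.

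Levels below are normalized counts, taken as the reads of a gene divided by a size factor per library. They are compared between groups for the same gene and not between genes, because gene length was not taken into account. Each library held from 31238653 to 36345095 recovered reads. The groups lay apart on the first principal component of all tested genes (45.7% of the variance), with each library close to the others of its group. Libraries within a group differed by more than sampling noise. The libraries labelled as neurons expressed all 14 pan-neuronal markers looked for, but markers of glia were abundant too. Summed over 14 pan-neuronal markers the libraries held 233175 to 237323 normalized counts with morphine and 288371 to 299220 with saline, and 7 of these markers fell and 3 rose. Summed over 11 of 13 listed astrocyte markers they held 265549 to 268414 with morphine and 316304 to 321656 with saline (6 fell and 2 rose), and over 9 of 12 oligodendrocyte markers 267589 to 269941 and 261655 to 266246 (3 fell and 3 rose). Over 8 of 13 microglia markers the sums were 7949 to 8488 with morphine and 5491 to 5860 with saline (4 rose and 2 fell), over 6 of 8 oligodendrocyte precursor markers 23654 to 24312 and 19521 to 19701 (4 rose and 0 fell, also 0 at an unadjusted p under 0.05), and over 12 of 14 endothelial and mural markers 17869 to 23752 and 19824 to 21028 (2 rose and 4 fell). No marker found in the table was at 0 in all libraries. The part of these marker shifts in the results on the CREB family was not tested, and in bulk RNA fewer cells of a type and less RNA per cell cannot be told apart.

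Among the DNA-binding members, CREB1 showed no change that passed the test. CREB1 (ENSMMUG00000022601), the founding member of the family and the main target of cAMP-dependent kinase signalling in neurons, had 344, 336 and 310 normalized counts in morphine libraries 1, 2 and 3, against 353, 449 and 349 in saline libraries 1, 2 and 3. The groups did not overlap, but the highest morphine value lay only 4.74 normalized counts below the lowest saline value, and the saline mean was raised by saline library 2. The log2 fold change was -0.21 ± 0.118 (SE), with a limma adjusted p of 0.247 and a 95% interval from -0.51 to 0.09. Without saline replicate 2 the log2 fold change was -0.09 (limma adjusted p = 0.419). CREB1 had the lowest read numbers of the members, 323 to 370 with morphine and 331 to 448 with saline, so that counting alone gives a coefficient of variation of 5.43% and 5.14%. The measured coefficient of variation was 5.36% in morphine libraries and 14.7% in saline libraries.

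CREM (ENSMMUG00000022508), whose isoforms include activators and the short inducible repressor ICER, fell with morphine. It had 781, 599 and 701 normalized counts in morphine libraries 1, 2 and 3, against 1126, 1069 and 1026 in saline libraries 1, 2 and 3. All 3 morphine libraries lay lower, and the highest of them was 245 normalized counts below the lowest saline library. CREM fell by 0.64 ± 0.111 (SE) on the log2 scale, with a limma adjusted p of 0.0150, which is 35.7% lower. It passed in each of the 6 fits that left out 1 library (limma adjusted p from 0.0238 to 0.0492). The table gives 1 value per gene, so full-length CREM and ICER cannot be told apart here.

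ATF2 (ENSMMUG00000003947), a more distant member that pairs with JUN and is activated by stress kinases rather than by protein kinase A, gave the smallest adjusted p of the set. It had 2824, 2667 and 2932 normalized counts in morphine libraries 1, 2 and 3, against 4372, 4465 and 4273 in saline libraries 1, 2 and 3. The groups were separated by 1341 normalized counts, beside an SD of 133 in morphine and 96.1 in saline libraries. ATF2 fell by 0.64 ± 0.0578 (SE) on the log2 scale, with a limma adjusted p of 0.00356, and in each of the 6 fits without 1 library it passed (limma adjusted p from 0.0165 to 0.0187). In absolute size this change was larger than that of 82.9% of all genes tested. The fall of CREM had nearly the same size but a wider spread, with a coefficient of variation of 13.1% in morphine libraries, beside 4.75% for ATF2.

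**Figure D2:**
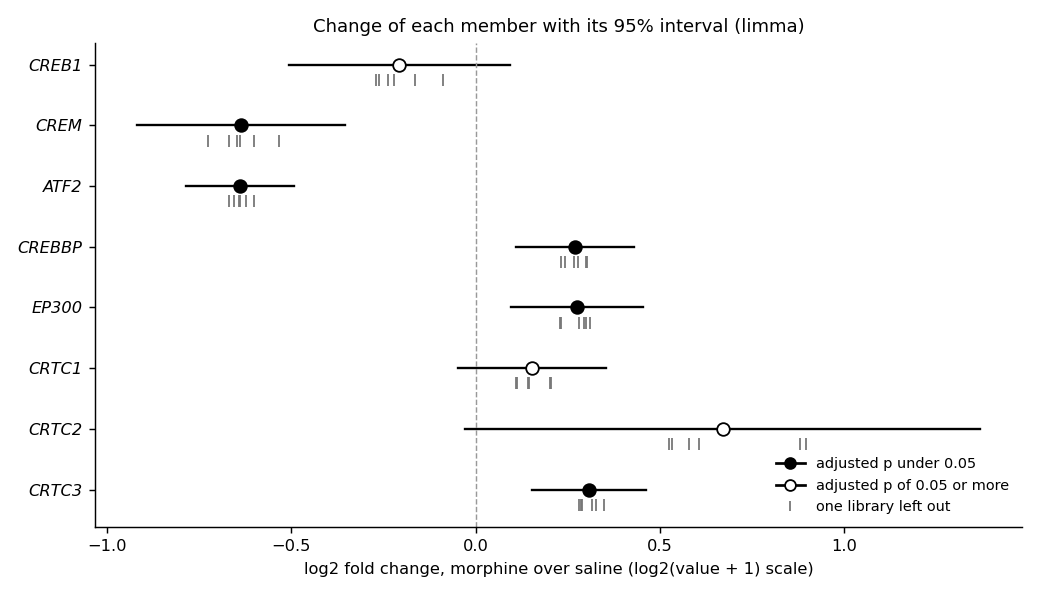
Log2 fold change of morphine over saline (x axis) for each member with its 95% interval from limma; filled circles mark an adjusted p under 0.05, and grey ticks show the 6 fits that each left out 1 library. The 2 falls, CREM and ATF2, lie near -0.64, the 3 rises between 0.27 and 0.31, and the interval of CRTC2 runs from -0.03 to 1.37.

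Both acetyltransferases rose, by 20.5% and 20.9%. CREBBP (ENSMMUG00000002286) had 2103, 2271 and 2195 normalized counts in morphine libraries 1, 2 and 3, against 1720, 1896 and 1835 in saline libraries 1, 2 and 3. EP300 (ENSMMUG00000000893), its close paralog with largely shared partners, had 2384, 2395 and 2623 normalized counts in morphine libraries 1, 2 and 3, against 1920, 2058 and 2143 in saline libraries 1, 2 and 3. For both genes all morphine libraries lay above all saline libraries. CREBBP rose by 0.27 ± 0.0630 (SE) on the log2 scale (limma adjusted p = 0.0322). EP300 rose by 0.27 ± 0.0710 (limma adjusted p = 0.0422). Neither passed in any of the 6 fits without 1 library, with limma adjusted p from 0.0544 to 0.0978 for CREBBP and from 0.0643 to 0.108 for EP300. In those fits the log2 fold change stayed between 0.23 and 0.30 for CREBBP and between 0.23 and 0.31 for EP300. In edgeR on the recovered reads the adjusted p was 0.00949 for CREBBP and 0.0116 for EP300.

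Within each library the ratio of CREBBP to EP300 does not depend on the scaling of the library, and gene length cancels when it is compared between groups. The ratio was 0.882, 0.948 and 0.837 in morphine libraries 1, 2 and 3, against 0.896, 0.922 and 0.856 in saline libraries 1, 2 and 3. The groups overlapped, the log2 difference was -0.0048 ± 0.0607 (SE) and a two-sided exact permutation test gave p = 1.00. Both genes were higher with morphine, and the saline ratios lay within the range of the morphine ratios.

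Of the 3 CRTC coactivators, CRTC3 rose and CRTC1 and CRTC2 did not pass the test. CRTC3 (ENSMMUG00000008886) had 2627, 2634 and 2416 normalized counts in morphine libraries 1, 2 and 3, against 2120, 1993 and 2089 in saline libraries 1, 2 and 3. All morphine libraries lay above all saline libraries, and CRTC3 rose by 0.31 ± 0.0609 (SE) on the log2 scale, with a limma adjusted p of 0.0209. It passed without morphine replicate 3 (limma adjusted p = 0.0357), but not without morphine replicate 1 or 2 (0.0678 and 0.0703) or saline replicate 1, 2 or 3 (0.0501, 0.0612 and 0.0565). In edgeR on the recovered reads its adjusted p was 0.00391.

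CRTC1 (ENSMMUG00000006509), the form that is most abundant in neurons in rodents and carries synaptic activity to the nucleus there, had 1586, 1660 and 1455 normalized counts in morphine libraries 1, 2 and 3, against 1392, 1331 and 1504 in saline libraries 1, 2 and 3. The groups overlapped, because saline library 3 lay above morphine library 3. The log2 fold change was 0.15 ± 0.0791 (SE) with a limma adjusted p of 0.209 and a 95% interval from -0.05 to 0.35.

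CRTC2 (ENSMMUG00000005005), known best for hormonal control of glucose synthesis in liver, had the largest estimate of the set and the widest spread. It had 1621, 979 and 1521 normalized counts in morphine libraries 1, 2 and 3, against 690, 1126 and 771 in saline libraries 1, 2 and 3. Library 2 of each group lay away from the other 2, low among morphine libraries and high among saline libraries, so that morphine library 2 lay below saline library 2. The log2 fold change was 0.67 ± 0.276 (SE), with a limma adjusted p of 0.132 and a 95% interval from -0.03 to 1.37, and CRTC2 did not pass in edgeR (adjusted p = 0.0513) or in DESeq2 (adjusted p = 0.0710). Its coefficient of variation was 25.2% in morphine libraries and 26.9% in saline libraries, where counting alone gives 2.68% and 3.43%. Genes with a mean within 1.5 fold of that of CRTC2, 2887 in all, had a median coefficient of variation of 5.95% and 6.45%, and CRTC2 lay above 97.7% and 97.3% of them. The 6 fits without 1 library gave log2 fold changes from 0.53 to 0.90.

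**Figure D3:**
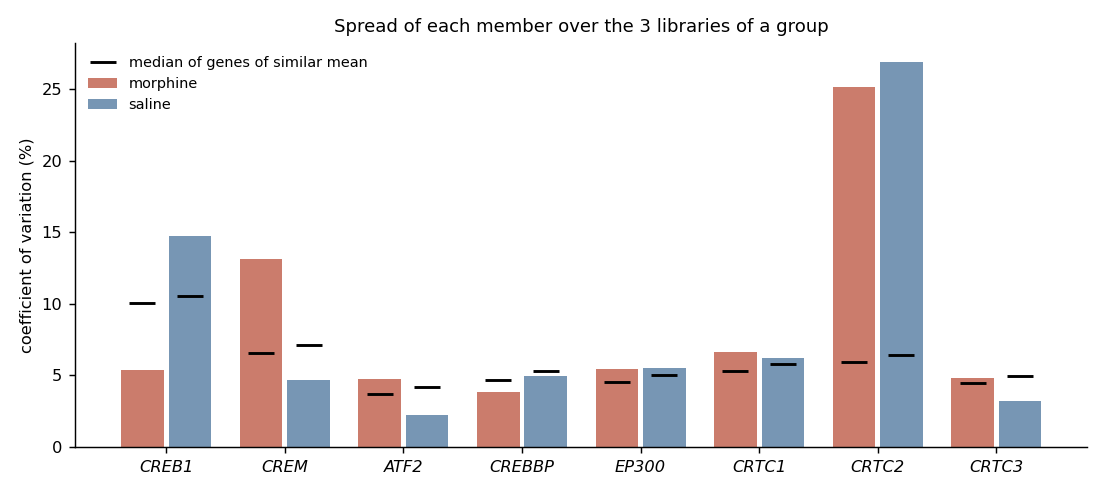
Coefficient of variation (y axis, %, from 0) of the normalized counts of each member over the 3 morphine and the 3 saline libraries; black lines mark the median of the genes with a mean within 1.5 fold of that member. CRTC2 reaches 25.2% and 26.9%, and ATF2 has the lowest value in saline libraries with 2.20%.

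Ratios between related members were compared for 5 pairs, since those with ATF1 could not be formed. With 3 libraries against 3 the smallest two-sided p of an exact permutation test is 0.1, so no pair can pass 0.05. The ratio of CREB1 to CREM was 0.441, 0.561 and 0.442 in morphine libraries 1, 2 and 3, against 0.314, 0.420 and 0.340 in saline libraries 1, 2 and 3. The groups did not overlap, the ratio was 1.35 fold higher with morphine (log2 difference 0.43 ± 0.170, SE), and the exact p of 0.1 is the smallest possible (0.250 adjusted over the 5 pairs). Of this pair CREM fell and CREB1 did not pass the test.

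The ratio of CRTC1 to CRTC3 was 0.604, 0.630 and 0.602 in morphine libraries 1, 2 and 3, against 0.657, 0.668 and 0.720 in saline libraries 1, 2 and 3. It was lower in all morphine libraries, by a log2 difference of -0.15 ± 0.0460 (SE), with an exact permutation p of 0.1 (0.250 adjusted over the 5 pairs). Both ratios that involve CRTC2 overlapped between groups. The ratio of CRTC1 to CRTC2 averaged 1.21 ± 0.421 with morphine and 1.72 ± 0.464 with saline, and that of CRTC3 to CRTC2 averaged 1.97 ± 0.627 and 2.52 ± 0.673 (SD, n = 3 libraries per group), each with an exact permutation p of 0.200.

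**Figure D4:**
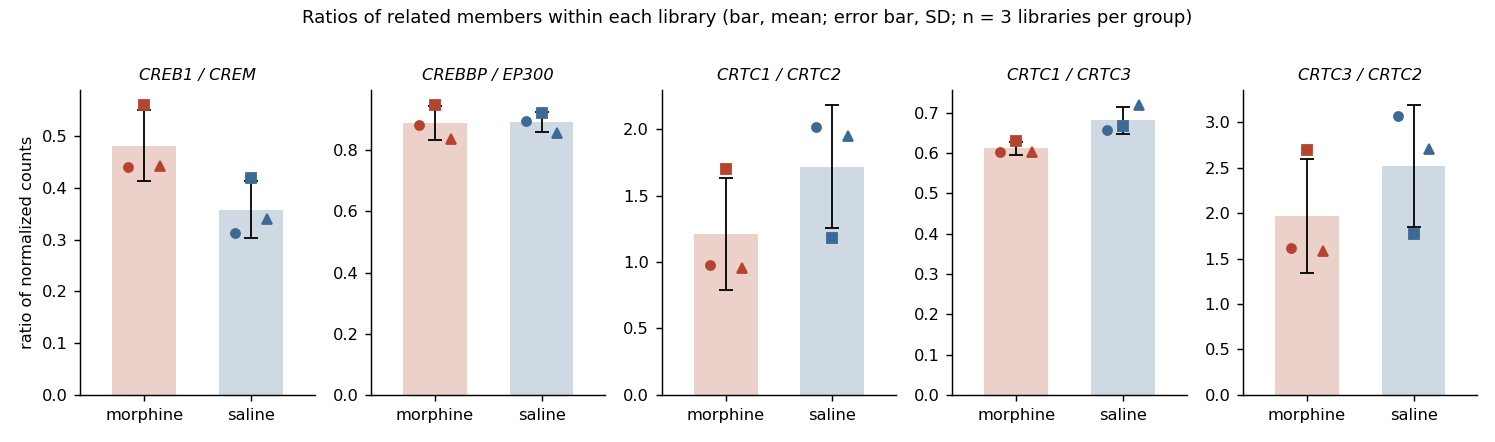
Ratios of normalized counts (y axis, from 0) of related members within each library, with morphine at the left and saline at the right; bars are means, error bars SD, and circles, squares and triangles are replicates 1, 2 and 3. CREB1 over CREM is higher and CRTC1 over CRTC3 lower in all morphine libraries, while the groups overlap for CREBBP over EP300.

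Likeness between genes was described by the root mean square difference of their log2 values, each centred on the mean of the gene, over the 6 libraries. Among the members the closest pair was CREBBP and EP300 (0.0607), followed by CREBBP and CRTC3 (0.0870), CRTC1 and CRTC3 (0.0899) and CREM and ATF2 (0.0952). ATF2 and CRTC2 lay farthest apart (0.712). Over 12948 other tested genes with a symbol, ATF2 was closest to STAU2 (0.0165), ZFX (0.0189) and PDP1 (0.0209), where the median gene lay at 0.371. STAU2, which encodes an RNA-binding protein of neuronal transport granules, averaged 6619 normalized counts with morphine and 10264 with saline.

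CREB1 was closest to SMN1 (0.0327), AVEN (0.0409) and PSMC6 (0.0445), with the median gene at 0.248. In SMN1, a gene of splicing-complex assembly, saline library 2 had 564 normalized counts beside 434 and 449 in saline libraries 1 and 3, a likeness to CREB1 that the choice of the gene fixes. Whether any reads of SMN1 were shared with other loci was not tested. For CRTC2, a choice made after its values were seen, the closest genes were IKZF1 (0.125), DNAI3 (0.132) and ZNF384 (0.135), and the median gene lay at 0.499. ZNF384, a zinc finger gene, had 2287, 1709 and 2268 normalized counts in morphine libraries 1, 2 and 3, against 1290, 1845 and 1279 in saline libraries 1, 2 and 3. Library 2 of each group stood off in the same directions as for CRTC2, which the choice of the closest genes fixes. IKZF1 and DNAI3 were low, with 34.6 and 32.7 normalized counts on average with morphine and 22.0 and 19.9 with saline.

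The other genes of the pathway were taken from 5 lists, read against the 27.9% of all tested genes that were called. Of 14 other bZIP factors of the CREB and ATF family measured, 1 rose and 0 fell in limma (2 and 3 at an unadjusted p under 0.05, 2 and 1 in edgeR, 2 and 2 in DESeq2), which is 7.14% called. The riser was CREB3L4, a membrane-bound factor, with 3315 ± 40.3 normalized counts with morphine and 2747 ± 207 with saline (SD, n = 3 libraries per group). It passed without saline replicate 1 (limma adjusted p = 0.0433) and in none of the other fits without 1 library (adjusted p from 0.0793 to 0.111).

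Of 20 kinases that phosphorylate CREB or activate its kinases, 6 rose and 1 fell in limma, 35.0% of those measured. RPS6KA1 and RPS6KA3 encode the ribosomal S6 kinases RSK1 and RSK2, which phosphorylate CREB downstream of MAP kinase, and moved in opposite directions. RPS6KA3 had 589, 504 and 518 normalized counts in morphine libraries 1, 2 and 3, against 847, 864 and 783 in saline libraries 1, 2 and 3 (fell by 0.63 ± 0.0834 on the log2 scale, limma adjusted p = 0.00744). RPS6KA1 had 1070, 1048 and 1214 normalized counts in morphine libraries 1, 2 and 3, against 678, 764 and 728 in saline libraries 1, 2 and 3 (rose by 0.62 ± 0.0845, limma adjusted p = 0.00803). Both passed in each of the 6 fits without 1 library. CAMK2B, a subunit of calcium/calmodulin kinase II, and CAMKK1, an upstream kinase of CaM kinases I and IV, rose by 0.23 each (limma adjusted p = 0.0229 and 0.0237), but passed in none of the 6 fits without 1 library. In those fits 1 to 3 kinases rose (3 without morphine replicate 1, 2 without morphine replicate 3 or saline replicate 1 or 3, and 1 without morphine replicate 2 or saline replicate 2) and 1 fell, and 3 fell in edgeR and in DESeq2.

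Of 10 regulators of the CRTC proteins measured, 4 fell and 0 rose in limma, which is 40.0% called (5 and 1 at an unadjusted p under 0.05, and 1 rose in edgeR and 2 in DESeq2). The 4 were PPP3CA, PPP3CB and PPP3R1, subunits of calcineurin, which dephosphorylates CRTCs, and SIK1, a salt-inducible kinase that phosphorylates them and is itself induced by CREB. PPP3CA had 34317, 32498 and 34521 normalized counts in morphine libraries 1, 2 and 3, against 49841, 50110 and 49965 in saline libraries 1, 2 and 3, and fell by 0.57 ± 0.0498 (SE) on the log2 scale with a limma adjusted p of 0.00340. PPP3CB fell by 0.38 and PPP3R1 by 0.32 (limma adjusted p = 0.0107 and 0.0124), and these 3 calcineurin genes passed in each fit without 1 library. Another calcineurin subunit of the list, PPP3CC, did not pass (log2 fold change 0.03, limma adjusted p = 0.767), and its groups overlapped. SIK1 had 1233, 1109 and 1095 normalized counts in morphine libraries 1, 2 and 3, against 1480, 1576 and 1447 in saline libraries 1, 2 and 3. SIK1 fell by 0.39 (limma adjusted p = 0.0170) but the call was lost when morphine library 2, morphine library 3 or saline library 2 was left out (limma adjusted p = 0.0607, 0.0564 and 0.0517). Calcineurin is abundant in neurons. The summed pan-neuronal markers were lower in the same morphine libraries, as given above, though 7 of these 14 markers fell and 3 rose. A link between these markers and the calcineurin genes was not tested.

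Of 12 other acetyltransferases and partners of CBP and p300, only NCOA1 was called in limma (8.33%), a steroid receptor coactivator that binds CBP. NCOA1 had 6237, 6118 and 5831 normalized counts in morphine libraries 1, 2 and 3, against 4505, 5017 and 4960 in saline libraries 1, 2 and 3. NCOA1 rose by 0.33 ± 0.0660 (SE) on the log2 scale (limma adjusted p = 0.0213), and the call was lost when morphine library 1, morphine library 2 or saline library 3 was left out (limma adjusted p = 0.0689, 0.0703 and 0.0503). In DESeq2 2 genes of the list rose.

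Of 26 textbook CREB target genes measured, 8 rose and 4 fell in limma (46.2% called), with a median log2 fold change of 0.06. The 4 with the smallest adjusted p were neuropeptide precursors. PENK, the enkephalin precursor, averaged 2464 ± 89.6 normalized counts with morphine and 853 ± 52.0 with saline, and CARTPT, the precursor of CART peptides, 427 ± 42.9 and 108 ± 7.78 (SD, n = 3 libraries per group). The log2 fold changes were 1.53 for PENK, 1.97 for CARTPT, 0.77 for NPY and 0.53 for SST, with limma adjusted p of 0.00114, 0.00151, 0.00340 and 0.00416, and all 4 passed in each fit without 1 library. The targets that fell were ARC, BDNF, VIP and PPARGC1A, with log2 fold changes of -0.23, -0.63, -0.57 and -0.36. They include a neuropeptide precursor, VIP, beside synaptic, trophic and metabolic genes. PDYN, TAC1, PER1 and PER2 also rose, with log2 fold changes of 0.60, 0.40, 0.35 and 0.22. Of the neuropeptide precursors called, PENK, CARTPT, NPY, SST, PDYN and TAC1 rose and VIP fell. In edgeR 7 and in DESeq2 8 of the targets fell. Most of these genes have regulators other than CREB, so the list does not measure CREB activity.

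**Figure D5:**
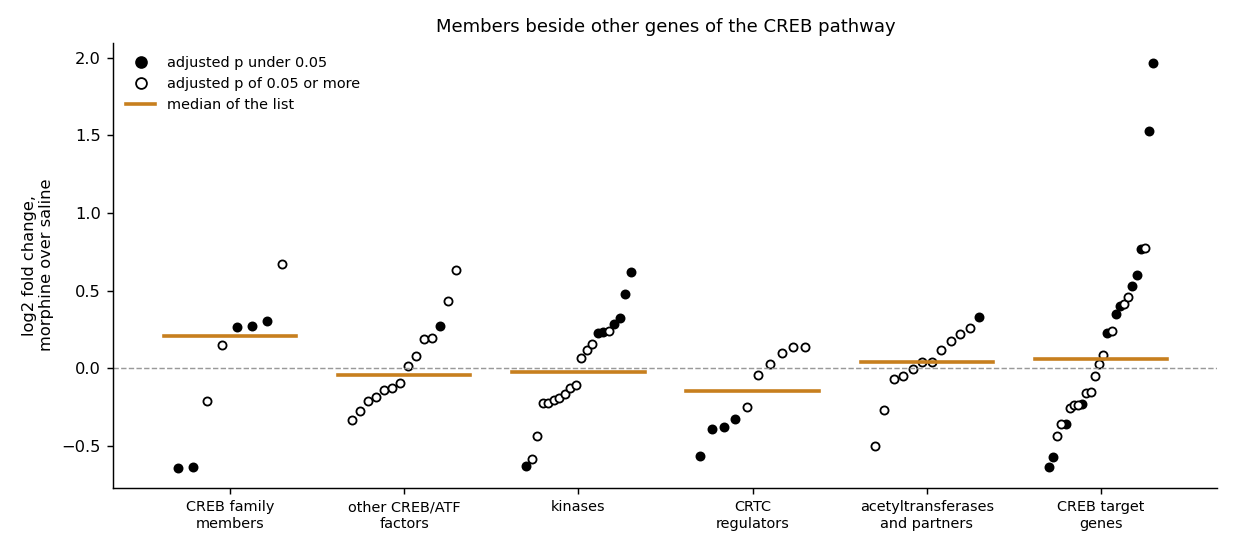
Log2 fold change of morphine over saline (y axis) for every measured gene of the CREB family and of 5 lists of related genes; filled circles passed the limma test at an adjusted p under 0.05, and the orange line is the median of each list. The members and the CREB targets spread in both directions, and 1 of 14 other CREB and ATF factors and 1 of 12 acetyltransferases and partners passed.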

How the data were processed

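The 6 libraries of polyadenylated RNA were assigned to groups by their titles. Bowtie2 2.1.0, StringTie, DESeq2 1.18.1 and the build hg19 appear in the submitters' processing notes without a stated role. Identifiers in the table are rhesus Ensembl genes, so the counting build is unsettled, no coordinates are given, and strand handling is not given. The full table that the authors deposited holds normalized counts per library, a signal made by dividing reads by 1 size factor per library, per the file header. It also holds the authors' log2 fold changes with standard errors, a score (the ratio of each change to its error) and p-values, raw and adjusted. The smaller deposited table, a subset of it, was not used. Dividing by the worth of 1 read gave whole reads within 0.001 for 100% of values, and on these reads edgeR called 5636 genes and DESeq2 6105.

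The main test, chosen for normalized values, was limma 3.58.1 (R 4.3.3), two-sided and with no trend, on log2(value + 1) of the 16595 genes with a mean of at least 10; p-values were adjusted over all of them by Benjamini-Hochberg. The pseudocount understates changes of low genes. Symbols matched 15436 of 23191 identifiers (66.6%). Alternatives were TMM and upper-quartile scaling, no filter or a minimum of 50, a pseudocount of 0.5 or 5, a replicate block, leaving out each library, a threshold of 0.01, an intensity trend, edgeR 4.0.16, DESeq2 1.42.0 and the authors' deposited comparison. Ratios were tested by exact permutation (scipy 1.17.1). Fits were also run on simulated counts, with 1 dispersion for all genes and independent libraries. Some real libraries share a monkey, so the simulation does not measure the errors of the calls given here. Within groups the mean chi-square between libraries was 17.5 to 23.8, where sampling noise gives about 1, so none was counted as a duplicate. Members, lists and tests were chosen with earlier results of these data known. Named were all members, up to 4 called genes of each pathway list by smallest adjusted p, and the 3 genes most like CREB1 and ATF2. CRTC2 was added to that comparison, and ARC, BDNF, VIP, PPARGC1A, PDYN, TAC1, PER1 and PER2 were named, after their values were seen. Matplotlib 3.10.9 under Python 3.11.15 drew the plots.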

Additional observations from a re-analysis of the deposited data

How the results depend on the processing

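Every member kept its direction in all 18 alternatives, and ATF2 passed in all of them. No filter, the minimum of 50, the replicate block, the intensity trend and the 0.01 threshold cannot change a log2 fold change. Where the groups do not overlap, leaving out 1 library cannot reverse a direction either, so this stability was partly fixed in advance. CREB1, CRTC1 and CRTC2 passed in 0 of 18 in limma, edgeR, DESeq2 or the authors' deposited comparison. Of the 3 rises 0 passed without a filter on low values, 0 at a threshold of 0.01 and 0 with the replicate block, and 0 to 1 passed without 1 library. Of the 2 falls 1 passed with the replicate block and 1 at 0.01, since CREM gave a limma adjusted p of 0.0512 under the block. Over all genes 2143 rose and 2488 fell. These were 1363 and 1630 without a filter, 681 and 896 with the replicate block and 634 and 898 at 0.01, and without 1 library 1072 to 1497 rose and 1464 to 1684 fell. The replicate numbers are not known to pair the libraries: deviations of same-numbered libraries correlated across genes at -0.056, -0.0039 and -0.028. Ratios between members moved by less than the spread between libraries in their 7 alternatives, the 6 that left out 1 library and 1 added to both values. With 3 libraries per group, leaving out 1 cannot move a ratio by more than that spread, so stability of the ratios was not tested. The log2 difference of CREB1 over CREM ran from 0.31 without morphine replicate 2 to 0.55 without saline replicate 2. CREB1 had the fewest reads of the members, 323 to 448 in a library. Its coefficient of variation in saline libraries was 14.7%, where counting alone gives 5.14%, and an effect of depth was not tested.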
